A study of Homo sapiens with 45 samples.

Results

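MDM2, TP53I3, SESN1, SESN2, FAS, BAX, BBC3, ZMAT3, RRM2B and TP53INP1 are target genes of the tumour suppressor p53. They were followed through the differentiation of human motor neurons in culture. These 10 genes were taken from a list by name, each matched through the GENCODE 29 symbol of its Ensembl row, and are 10 of the 58233 genes in the deposited tables. That list was chosen with earlier results of these data known. All 10 passed the filter on low counts, as did 19436 genes in all. Every library came from the established embryonic stem cell line H9, of human origin, so the course rests on a single line. All cells had been brought to a neuromesodermal progenitor state with CHIR99021 (which activates Wnt signalling), bFGF, the inhibitors SB431542 and DMH1, and a ROCK inhibitor. At day 0 they were dissociated and plated with 100 nM retinoic acid (RA), 500 nM SAG, which activates Hedgehog signalling through Smoothened, and again ROCK inhibitor, which was withdrawn 48 h later. Medium was then changed on alternate days. Polyadenylated RNA was sequenced on 15 days, day 0 to day 15 without day 3, in 3 libraries per day and 45 in all. The day 0 libraries are labelled control and those of all later days RA and SAG, so time and treatment differ together between day 0 and the rest.

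The transcription factor p53 is held low by MDM2, a ubiquitin ligase that marks it for destruction and that p53 itself induces, which closes a feedback loop. When DNA damage, nucleolar stress or other insults free p53, it binds paired half-sites near its targets and induces genes for cell cycle arrest, DNA repair, antioxidant defence and cell death. In neural progenitors and young neurons its death arm, through BAX and BBC3 (PUMA), is known to remove damaged cells.

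The sequences below are those in which a p53 element was found near a start site of 1 of the 10 genes, and they show what such a site looks like. The RefSeq promoter table (GRCh38.p14) holds windows of 250 bases before to 50 after each annotated start, and 16 of them belong to 8 of the 10 genes; RRM2B and TP53INP1 had no entry. The p53 consensus element was searched as 2 adjacent half-sites of 10 bases with no spacer. C was required at base 4 and G at base 7 of each half-site, and up to 3 of the 20 letters could differ from the consensus. The consensus reads the same on both strands, so 1 search covers both. MDM2, FAS and SESN1 had a match, with the element in capitals between 5 flanking bases on either side, each 5′ to 3′ on the strand of its gene.
MDM2: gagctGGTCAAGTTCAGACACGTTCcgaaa
FAS: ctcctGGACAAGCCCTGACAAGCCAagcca
SESN1: cgtctGGACAAGTCTCCACAAGTCAgaaat
The MDM2 stretch lies at chr12:68808918-68808947 on the plus strand, 74 bases before an alternative start inside the gene, where 7 GENCODE transcripts span it and 0 of their exons overlap it, so it is intronic. The FAS stretch lies at chr10:88991304-88991333 on the plus strand, 102 bases before a start, within 13 transcripts and overlapping 2 exons. The SESN1 stretch lies at chr6:109009013-109009042 on the minus strand, 29 bases before a start, in an intron of the 2 transcripts that span it. The elements of MDM2 and FAS differ from the consensus at 2 letters each and that of SESN1 at 3. Among all 35116 windows, 1.12% hold such an element, and among all 27305 genes with a window, 1.37%. A match describes letters in these windows, and a missing match says only that they do not hold them.

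Library totals ran from 22835823 to 39066247 counts, and from 31171674 to 38179795 on days 8 to 10. The least counted gene, FAS, still had 176 to 572 counts in each library. The labels call the 3 libraries of a day only bioreps, so p-values measure the spread between these samples, which may be technical. The strand used for counting is not given in the sources used here. In GENCODE 29 the spans of MDM2, TP53I3, SESN1, FAS, BBC3 and TP53INP1 overlap another gene on the opposite strand, for BBC3 the microRNA gene MIR3190. MDM2, SESN1, FAS and BBC3 also overlap genes on their own strand. Reads from stretches that 2 genes share may not be told apart. Only whole spans were compared, so whether exons are shared was not looked at. SESN2, BAX, ZMAT3 and RRM2B overlap none. The labelled cell type, neural progenitor cells, was checked with 9 markers. Their summed TPM (transcript abundance scaled for transcript length and library total) lay between 1193 and 1357 on day 0 and between 3587 and 3786 on day 9. In 2 of the 3 day 0 libraries 1 of the 9, HES5, was at 0, and on day 9 none was. In counts scaled to the library total (CPM), VIM and NES were the highest of the 9 on day 0, at 1041 and 523. PAX6, SOX1 and OLIG2 then read only 0.215, 2.35 and 2.47 CPM, and 117, 43.9 and 83.6 on day 9. SOX2 went the other way, from 271 to 194 CPM. The sum therefore says little about the label on day 0. In bulk RNA, fewer cells of a type and less RNA per cell cannot be told apart.

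Per unit of length, BAX had the highest mean of the 10 transcripts on days 0, 9, 10 and 15, and FAS or TP53INP1 the lowest. On day 0 BAX, the pore-forming death protein, stood at 276 ± 11 TPM (mean ± SD, n = 3 here and below) and MDM2 at 66.9 ± 2.3. RRM2B, TP53I3 and SESN1 followed between 36.1 and 40.5 TPM, with neighbours that overlapped. TP53INP1 was last at 7.27 ± 0.27 TPM, and its libraries overlapped those of FAS at 8.12 ± 0.77. By day 15 MDM2, at 166 ± 43 TPM, overlapped BAX at 188 ± 15. TP53INP1 had moved to the third place at 50.6 ± 3 TPM, above TP53I3 at 39.0 ± 3.9. TP53I3, RRM2B, SESN1, SESN2, ZMAT3 and BBC3 then lay between 26.2 and 39.0 TPM, each overlapping the next, and FAS was lowest at 14.7 ± 2.

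The 10 genes did not follow 1 course. Between day 0 and day 15, 6 were higher and 4 lower by edgeR's quasi-likelihood test with Benjamini-Hochberg adjustment over all genes tested (used for every adjusted p here, with genes called at an adjusted p under 0.05). Of all genes tested, 40.3% were called higher and 36.2% lower. Any difference between days was called for 10 of 10, against 91.5% of all genes. Levels from here on are CPM, read counts scaled to the library total after TMM normalization and not to length, and folds compare 1 gene between days.

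**Figure D1:**
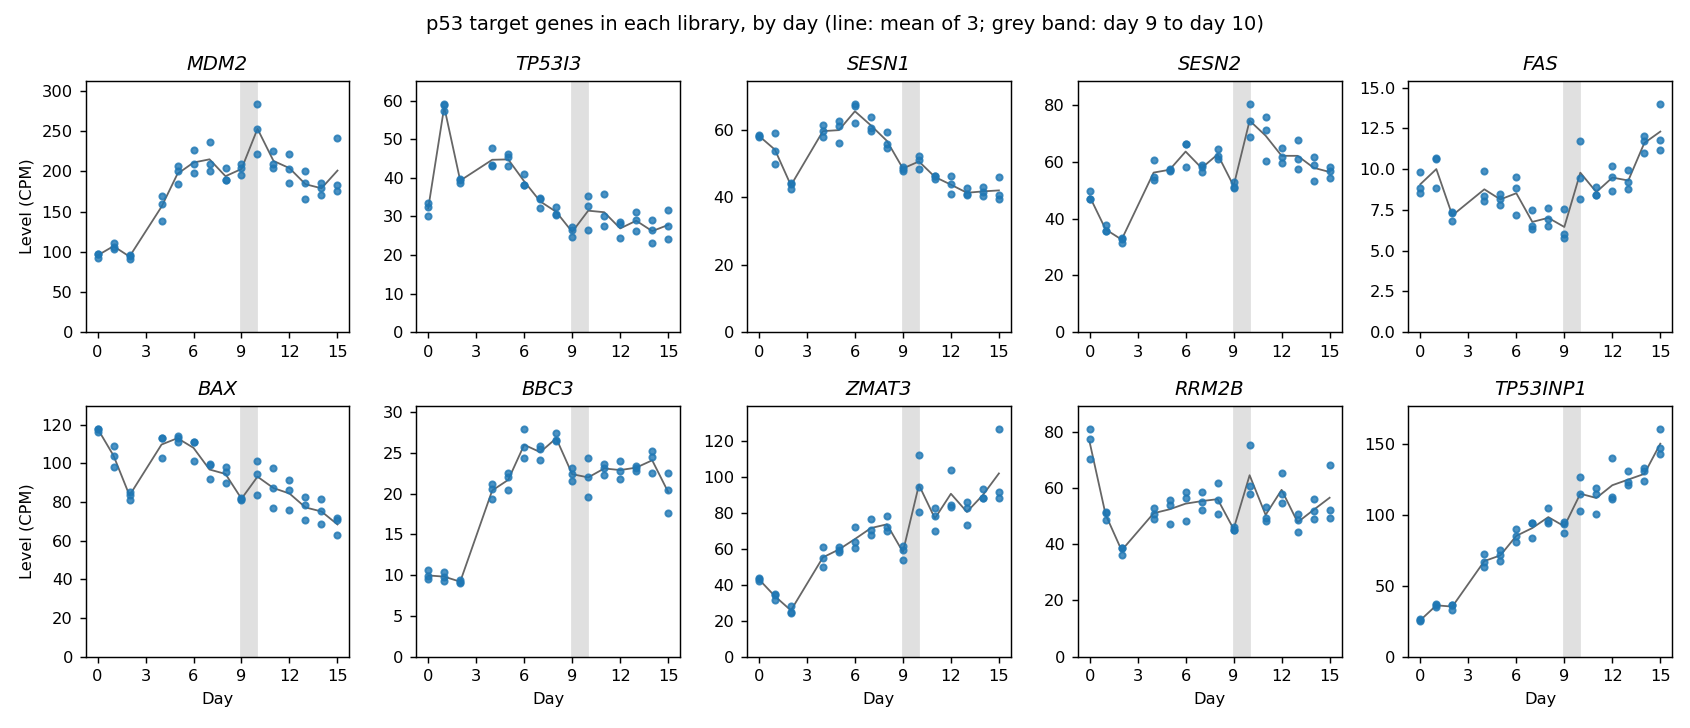
Level (CPM) of each of the 10 p53 target genes in all 45 libraries against day; points are libraries, lines join the means of 3, and the grey band spans day 9 to day 10. TP53INP1 climbed from 25.8 to 150.3 CPM, TP53I3 was highest on day 1, and MDM2, SESN2, BBC3, ZMAT3 and RRM2B were lowest on day 2.

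TP53INP1, a nuclear and autophagy protein that promotes p53's death programme, had the widest range. It read 26.7, 25.7 and 25.0 CPM on day 0 and 143, 147 and 161 on day 15, a 5.83-fold difference of means (log2 change 2.54 ± 0.08 SE, adjusted p = 1.2e-26). The libraries of the 2 days lay far apart, with means of 67.5 CPM on day 4, 98.5 on day 8 and 115 on day 10 in between.

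ZMAT3, an RNA-binding zinc finger protein that p53 induces, and MDM2 were also higher at the end than at the start. ZMAT3 read 43.3, 43.9 and 42.2 CPM on day 0 and 91.6, 88.1 and 127 on day 15 (log2 change 1.24 ± 0.11, adjusted p = 2.0e-12). MDM2 read 97.0, 97.2 and 91.9 CPM on day 0 and 183, 176 and 242 on day 15 (log2 change 1.07 ± 0.09, adjusted p = 1.1e-12). Both kept all day 15 libraries above all of day 0, with the replicate 3 library highest. The day on which MDM2 peaked was day 10, at 253 ± 31 CPM, 2.69-fold above its low of 94.0 ± 2.5 on day 2.

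The death genes went different ways. BBC3 encodes PUMA, which sets BAX free by binding its BCL2-like guards. It read 10.6, 9.48 and 9.91 CPM on day 0, peaked at 26.8 ± 0.51 on day 8, and read 22.6, 20.5 and 17.6 on day 15 (log2 change from day 0 1.02 ± 0.08, adjusted p = 3.5e-15). FAS, the death receptor, was lowest on day 9 at 6.45 ± 0.98 CPM and highest on day 15 at 12.3 ± 1.5, with a log2 change from day 0 of 0.44 ± 0.11 (adjusted p = 5.6e-04). BAX fell instead: its libraries read 118, 118 and 116 CPM on day 0 and 70.5, 62.9 and 71.8 on day 15, a log2 change of -0.78 ± 0.07 (adjusted p = 2.5e-12). No library of day 15 reached those of day 0 for BAX.

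Of the sestrins, which restrain the growth kinase complex mTORC1 and act against oxidants, one ended lower and the other slightly higher. SESN1 went from 58.5, 58.3 and 58.0 CPM on day 0 to 39.5, 40.6 and 46.2 on day 15 (log2 change -0.47 ± 0.06, adjusted p = 9.6e-10). SESN2 differed by 0.24 ± 0.07 (adjusted p = 0.0016) and had its high on day 10, at 74.5 ± 5.9 CPM, 2.29-fold above day 2. RRM2B, the p53-inducible ribonucleotide reductase subunit that supplies DNA precursors outside S phase, was highest on day 0 at 76.3 ± 5.4 CPM. Its log2 change to day 15 was -0.43 ± 0.1 (adjusted p = 1.1e-04).

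TP53I3 (PIG3), a quinone oxidoreductase named as a p53-inducible gene, had a short peak on day 1. It read 33.6, 30.1 and 32.4 CPM on day 0, 59.2, 57.3 and 58.8 on day 1, and 38.7, 39.6 and 39.5 on day 2. The day 1 libraries stood above those of both neighbours. By day 15 it was lower than on day 0, by -0.21 ± 0.09 on the log2 scale (adjusted p = 0.041). On limma's test of log2(TPM + 1), 2 rather than 4 of the genes were lower on day 15.

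Steps between neighbouring sampled days showed when the genes moved. From day 0 to day 1, TP53I3 rose by 0.87 ± 0.09 (adjusted p = 1.2e-10) and TP53INP1 by 0.49 ± 0.08 (adjusted p = 2.4e-06), while RRM2B, SESN2, ZMAT3 and BAX fell. Of all genes, 30.1% were called higher and 31.7% lower in that step. The largest of the falls was that of RRM2B, from 81.1, 77.4 and 70.4 CPM to 51.2, 51.5 and 48.7, groups that did not overlap. From day 1 to day 2, 6 of the 10 fell and 0 rose, against 11.9% of all genes called lower and 11.4% higher. The 6 were TP53I3, SESN1, FAS, BAX, ZMAT3 and RRM2B, with log2 changes from -0.57 to -0.31. Without replicate 1, 2 genes rather than 4 fell from day 0 to day 1 and 3 rather than 6 from day 1 to day 2, and limma on log2(TPM + 1) gave the same counts.

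**Figure D2:**
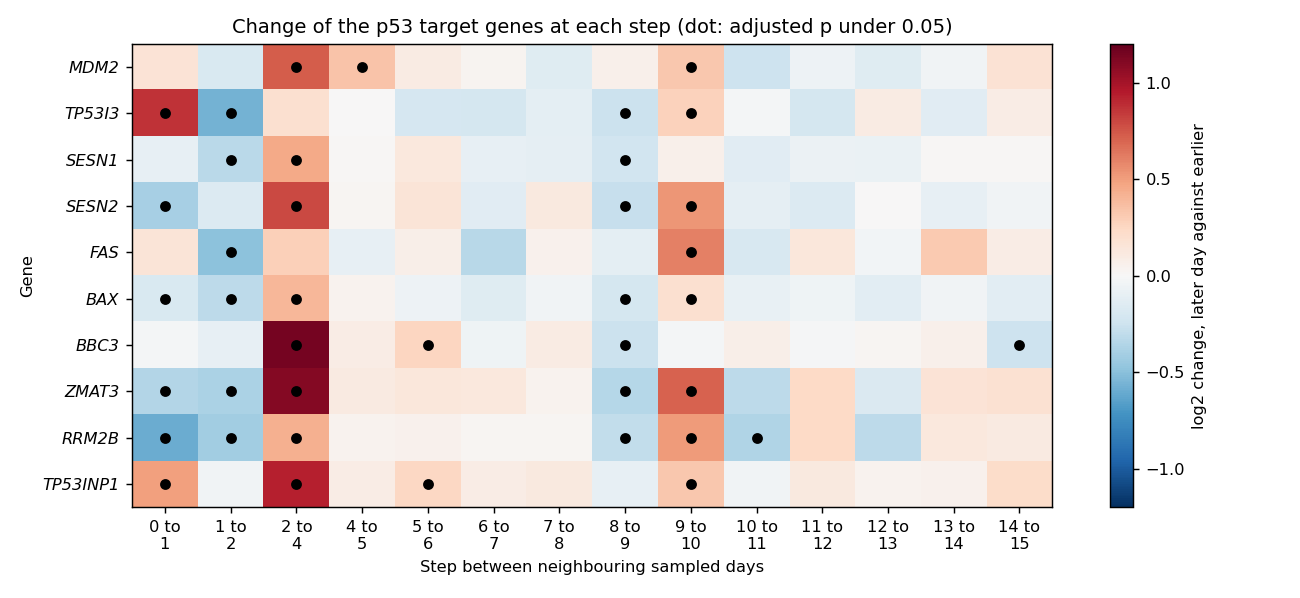
The log2 change (colour) of each of the 10 genes, rows, at the 14 steps between neighbouring sampled days, columns; a dot marks an adjusted p under 0.05. Dots gather at day 2 to day 4 (8 genes higher), day 8 to day 9 (7 lower) and day 9 to day 10 (8 higher), and few stand in the steps after day 10.

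The step from day 2 to day 4, which skips the unsampled day 3 and follows the withdrawal of ROCK inhibitor, held the broadest rise. In it 8 of the 10 genes rose and 0 fell, with a median log2 change of 0.59 over the 10 against 0.003 over all genes, of which 19.5% were called higher. BBC3 went from 9.21, 9.42 and 8.99 CPM to 20.6, 19.3 and 21.2 (log2 change 1.15 ± 0.08, adjusted p = 7.5e-15). ZMAT3 went from 28.1, 24.6 and 24.8 CPM to 55.0, 61.0 and 50.1 (1.1 ± 0.12, adjusted p = 1.6e-09). In both, the lowest day 4 library was well above the highest of day 2. TP53INP1 rose by 0.93 ± 0.08, SESN2 by 0.79 ± 0.07, MDM2 by 0.73 ± 0.09, SESN1 by 0.45 ± 0.06, RRM2B by 0.43 ± 0.1 and BAX by 0.4 ± 0.07. TP53I3, at 0.19 ± 0.09 (adjusted p = 0.11), and FAS, at 0.29 ± 0.12 (adjusted p = 0.062), did not pass. The libraries of the 2 days did not overlap for 10 of the 10 genes, all higher on day 4, which held for 24.3% of all genes.

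Among 34 other p53 targets, 21 rose and 2 fell at that step, with a median of 0.31. Of all genes, 19.5% were called higher, and their median was 0.003. Marker lists moved too: 9 of 10 neuron markers rose, their summed level going from a range of 514 to 518 TPM on day 2 to 1223 to 1291 on day 4. Of 24 genes of dividing cells (S and G2/M phase), 22 fell, with a median of -0.32. The share of all genes called lower at this step is not given here. The part of these in the rise of the 10 genes was not tested.

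Between day 4 and day 8 few single steps were called. Over these days the mean of TP53INP1 went from 67.5 to 98.5 CPM and that of TP53I3 from 44.7 to 31.2, and day 8 against day 4 was not tested as such. MDM2 rose from day 4 to day 5, from 159.7, 169 and 138 CPM to 201, 207 and 184 (log2 change 0.34 ± 0.09, adjusted p = 0.018), where 3.95% of all genes were called higher. BBC3 rose by 0.26 ± 0.07 (adjusted p = 0.016) and TP53INP1 by 0.25 ± 0.08 (adjusted p = 0.029) from day 5 to day 6, where the share was 5.27%. The call of MDM2 was lost without replicate 1 or replicate 2, and so were both calls of the next step. At day 6 to day 7 and day 7 to day 8, 0 of the 10 were called, against 6.33% and 9.78% of all genes in either direction. At an unadjusted p under 0.05, 4 and 1 were lower, and DESeq2 also called 0 in both steps.

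From day 8 to day 9, 7 of the 10 fell and 0 rose, where 11.0% of all genes were called lower. The means of TP53I3, BAX and SESN1 had already gone down from day 6 to day 8. The median log2 change over the 10 was -0.24 against -0.001 over all genes. ZMAT3 went from 70.2, 78.6 and 72.3 CPM to 61.4, 53.9 and 59.6 (-0.34 ± 0.11, adjusted p = 0.023). RRM2B went from 50.6, 61.7 and 55.6 CPM to 44.9, 45.2 and 46.0 (-0.3 ± 0.1, adjusted p = 0.022). SESN2 went from 62.1, 61.1 and 64.5 CPM to 50.6, 53 and 51.0 (-0.28 ± 0.07, adjusted p = 0.0023). In these 3 genes the highest library of day 9 lay below the lowest of day 8. BBC3 (-0.26 ± 0.07), TP53I3 (-0.26 ± 0.09), SESN1 (-0.23 ± 0.06) and BAX (-0.21 ± 0.07) fell as well, while FAS (-0.12 ± 0.12), TP53INP1 (-0.1 ± 0.08) and MDM2 (0.06 ± 0.09) did not pass. The same 7 genes had libraries that did not overlap, all lower on day 9, as did 20.3% of all genes. The count rested on few libraries: it was 0 without replicate 1, 2 without replicate 2, and 4 without day 8 replicate 2 or without day 9 replicate 1. With no filter on low counts, which raised the number of genes tested to 37223, it was 3.

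In the step from day 9 to day 10, 8 of the 10 genes rose and 0 fell (0 also at an unadjusted p under 0.05 and by DESeq2). The median log2 change over the 10 was 0.32 against 0.001 over all genes. SESN1 and BBC3, which had fallen in the step before, were not called, and MDM2, FAS and TP53INP1 rose without a called fall before. Of all genes, 15.9% were called higher and 13.7% lower. The rises ran from 1.14-fold in BAX to 1.64-fold in ZMAT3. In CPM the libraries of the 2 days did not overlap for 7 of the 10, all higher on day 10, as in 20.3% of all genes. TP53I3, SESN1 and BBC3 overlapped. In TPM, FAS (5.56 to 9.34 on day 9, 8.26 to 12.8 on day 10) and BAX overlapped too, while TP53I3 did not.

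**Figure D3:**
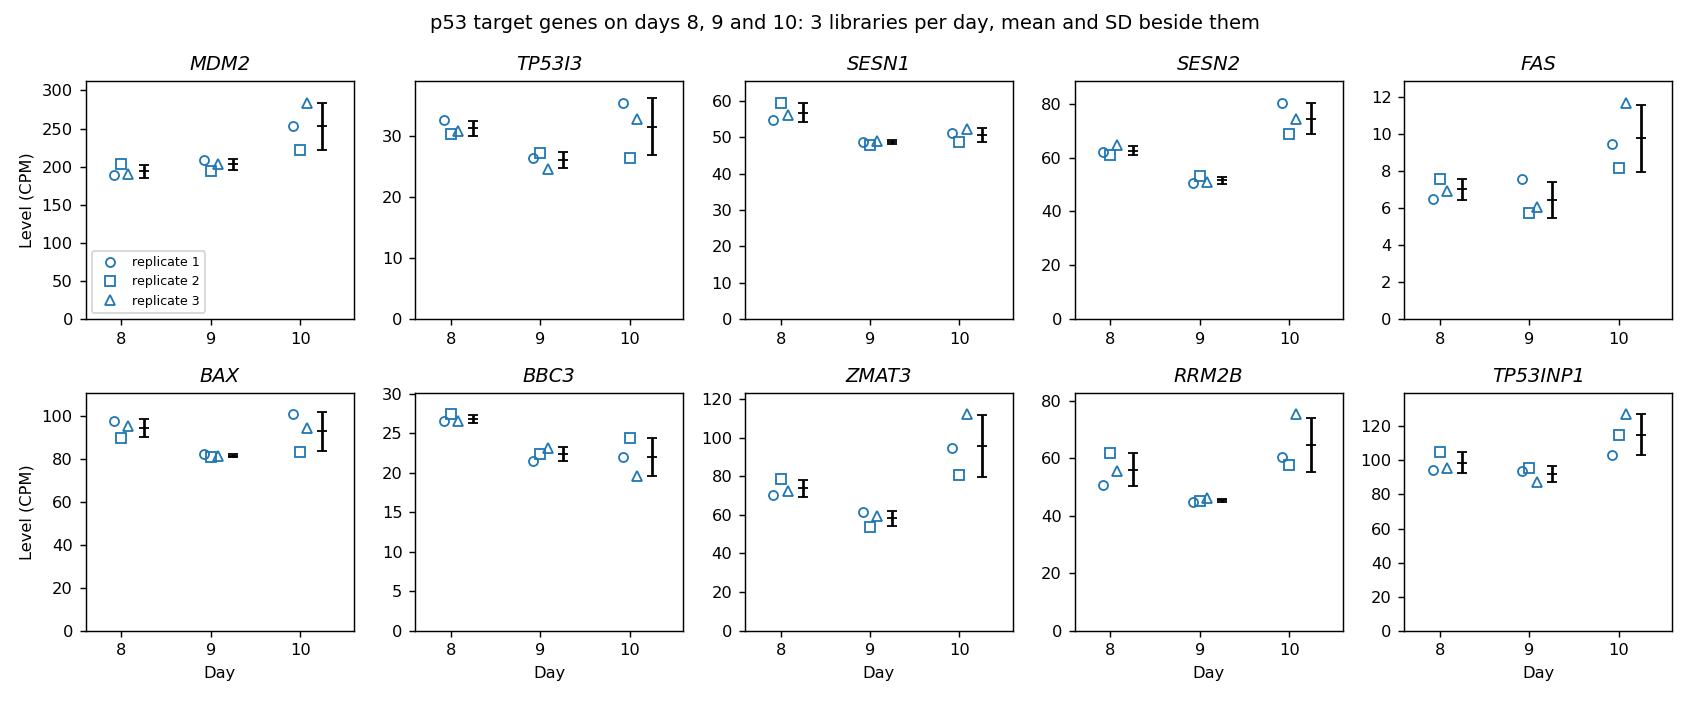
Level (CPM, linear axes from 0) of the 10 genes on days 8, 9 and 10; symbols are the 3 libraries, marked by replicate number, and the bars beside them are mean ± SD. ZMAT3, SESN2 and RRM2B dip on day 9 and stand higher on day 10, SESN1 and BBC3 stay low after day 8, and the day 10 libraries spread more widely than those of day 9 in all 10 genes.

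ZMAT3 rose most, from 61.4, 53.9 and 59.6 CPM to 94.4, 80.7 and 112 (log2 change 0.71 ± 0.11, adjusted p = 5.1e-06). Every day 10 library lay above every day 9 library, with replicate 3 highest and replicate 2 lowest. FAS rose from 7.58, 5.75 and 6.04 CPM to 9.45, 8.18 and 11.7 (0.6 ± 0.12, adjusted p = 1.2e-04), again with no overlap and in the same order. The rise of SESN2 took it from 50.6, 53 and 51.0 CPM to 80.4, 68.6 and 74.4 (0.53 ± 0.07, adjusted p = 1.2e-07), with replicate 1 highest. RRM2B rose from 44.9, 45.2 and 46.0 CPM to 60.5, 57.7 and 75.2 (0.51 ± 0.1, adjusted p = 1.0e-04). These 4 genes kept their call in all settings tried for this step.

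The feedback regulator MDM2 rose from 209, 195 and 204 CPM to 253, 222 and 284 (0.32 ± 0.09, adjusted p = 0.0067). TP53INP1 rose from 93.8, 95.3 and 87.0 CPM to 103, 115 and 127 (0.32 ± 0.08, adjusted p = 0.0011). Neither overlapped between the days. TP53I3 rose from 26.4, 27.2 and 24.6 CPM to 35.4, 26.4 and 32.7 (0.28 ± 0.09, adjusted p = 0.021), and its replicate 2 library of day 10 lay within the range of day 9. For BAX the libraries read 82.3, 81.2 and 81.4 CPM, then 101, 83.5 and 94.4 (0.19 ± 0.07, adjusted p = 0.047), so replicate 2 of day 10 stood just above day 9. SESN1, at 48.6, 48.0 and 49.1 CPM and then 51.1, 48.6 and 52.4, did not pass (0.06 ± 0.06, adjusted p = 0.44), and its sign turned by limma on log2(TPM + 1), at -0.03. BBC3, at 21.5, 22.4 and 23.2 CPM and then 22.0, 24.4 and 19.6, did not pass either (-0.02 ± 0.07, adjusted p = 0.85).

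The count of 8 fell to 5 without replicate 1, without replicate 3 or without day 10 replicate 3. The calls so lost were those of MDM2 (adjusted p = 0.088 without day 10 replicate 3), TP53I3 (0.34 without replicate 1), BAX (0.44 without replicate 1) and TP53INP1 (0.052 without replicate 3), and on limma's test of log2(TPM + 1) MDM2 (0.093) and BAX (0.24) missed the threshold.

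The 2 neighbouring steps were compared in the same fit. The change from day 9 to day 10 minus the change from day 8 to day 9 was called for 8 of the 10 genes, all positive, where 13.1% of all genes were called so. It was 1.05 ± 0.19 on the log2 scale for ZMAT3 (adjusted p = 1.2e-04), 0.81 ± 0.12 for SESN2 (3.6e-06) and 0.81 ± 0.17 for RRM2B (5.3e-04). For MDM2 (0.26 ± 0.16, adjusted p = 0.24) and BBC3 (0.24 ± 0.12, adjusted p = 0.15) it did not pass. Both steps share the day 9 libraries, so low values on day 9 enter both. The count was 3 without day 9 replicate 3, and 5 without day 9 replicate 2, without any 1 of the replicate numbers or by limma on log2(TPM + 1).

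Day 10 was therefore also set against day 8, a comparison added after seeing the data. It called 5 of the 10 higher and 2 lower, against 15.6% and 13.8% of all genes, with a median of 0.21 over the 10. Higher were FAS (0.48 ± 0.12, adjusted p = 0.0016), MDM2 (0.38 ± 0.09, 0.0015), ZMAT3 (0.37 ± 0.11, 0.0076), SESN2 (0.25 ± 0.07, 0.0036) and TP53INP1 (0.22 ± 0.07, 0.022). Lower were BBC3 (-0.29 ± 0.07, adjusted p = 0.0019) and SESN1 (-0.16 ± 0.06, 0.023). TP53I3 (0.02 ± 0.09), BAX (-0.02 ± 0.07) and RRM2B (0.2 ± 0.1) did not pass, so over these 2 days no difference was shown for them. The 5 higher genes became 1 without replicate 1, 2 without day 10 replicate 3, and 3 without replicate 3 or by limma on log2(TPM + 1). The 2 lower became 1 without replicate 1, replicate 2, day 8 replicate 2 or day 10 replicate 2.

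Over the 3 days on either side, days 10 to 12 against days 7 to 9, 5 genes were higher and 2 lower, where 24.8% of all genes were called higher and 24.4% lower. FAS differed by 0.46 ± 0.07 (adjusted p = 4.1e-07), ZMAT3 by 0.37 ± 0.06 (5.1e-06), TP53INP1 by 0.31 ± 0.04 (1.7e-07), SESN2 by 0.26 ± 0.04 (4.1e-07) and RRM2B by 0.15 ± 0.06 (0.023). SESN1 (-0.24 ± 0.03, adjusted p = 4.5e-08) and BBC3 (-0.13 ± 0.04, 0.01) were lower, a count of 2 that became 1 without replicate 3. MDM2, at 0.12 ± 0.05 (adjusted p = 0.051), TP53I3 and BAX did not pass.

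The rest of the p53 pathway was read from lists at the same step from day 9 to day 10. Of all genes, 15.9% were called higher and 13.7% lower in it. Of 34 other p53 targets, 21 rose and 3 fell, with a median of 0.28. CDKN1A, the p21 inhibitor of cyclin-dependent kinases, went from 122 ± 1.1 to 261 ± 46 CPM (1.1 ± 0.14, adjusted p = 3.6e-07). TRIM22 (1.12 ± 0.23) and the secreted factor GDF15 (1.03 ± 0.17) changed by as much from lower levels, 1.29 ± 0.2 and 4.58 ± 0.86 CPM on day 9, and the kinase gene PLK2 rose by 0.74 ± 0.15. The 3 that fell were the ceramidase gene ACER2 (-0.54 ± 0.08), TRAF4 (-0.17 ± 0.06) and PRKAB1 (-0.11 ± 0.04). CCNG1, a p53 target of high level at 205 ± 4.7 CPM on day 9, did not pass (0.04 ± 0.11, adjusted p = 0.84). From day 8 to day 9, 16 of the 34 had fallen and 1 had risen, where 11.0% of all genes were called lower. Between day 8 and day 10, 5 were higher and 4 lower, close to the 15.6% and 13.8% of all genes called so. CDKN1A (0.49 ± 0.14, adjusted p = 0.0071) and PLK2 (0.72 ± 0.15, 4.9e-04) were higher on day 10 than on day 8. TRIM22 (0.54 ± 0.22, 0.064) and GDF15 (0.03 ± 0.16, 0.92) did not pass. GDF15 had 9.21 ± 0.08 CPM on day 8 and 9.41 ± 1 on day 10. For day 9 to day 10, the 21 became 9 without replicate 1. The 3 became 1 without replicate 2, replicate 3, day 9 replicate 3 or day 10 replicate 3.

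Of 14 genes listed as regulators of p53, 2 rose and 3 fell from day 9 to day 10. These counts were near the 15.9% of all genes called higher and 13.7% called lower. The median log2 change over the 14 was -0.06, against 0.001 over all genes. PPM1D, a phosphatase that p53 induces and that switches p53 off, rose by 0.39 ± 0.09 (adjusted p = 8.9e-04), and the checkpoint kinase CHEK2 by 0.19 ± 0.07. The ligase gene COP1 (-0.33 ± 0.06), the acetyltransferase gene KAT5 (-0.33 ± 0.06) and TP53BP1 (-0.14 ± 0.04) fell. MDM4, the partner of MDM2, did not pass (-0.1 ± 0.08, adjusted p = 0.36).

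**Figure D4:**
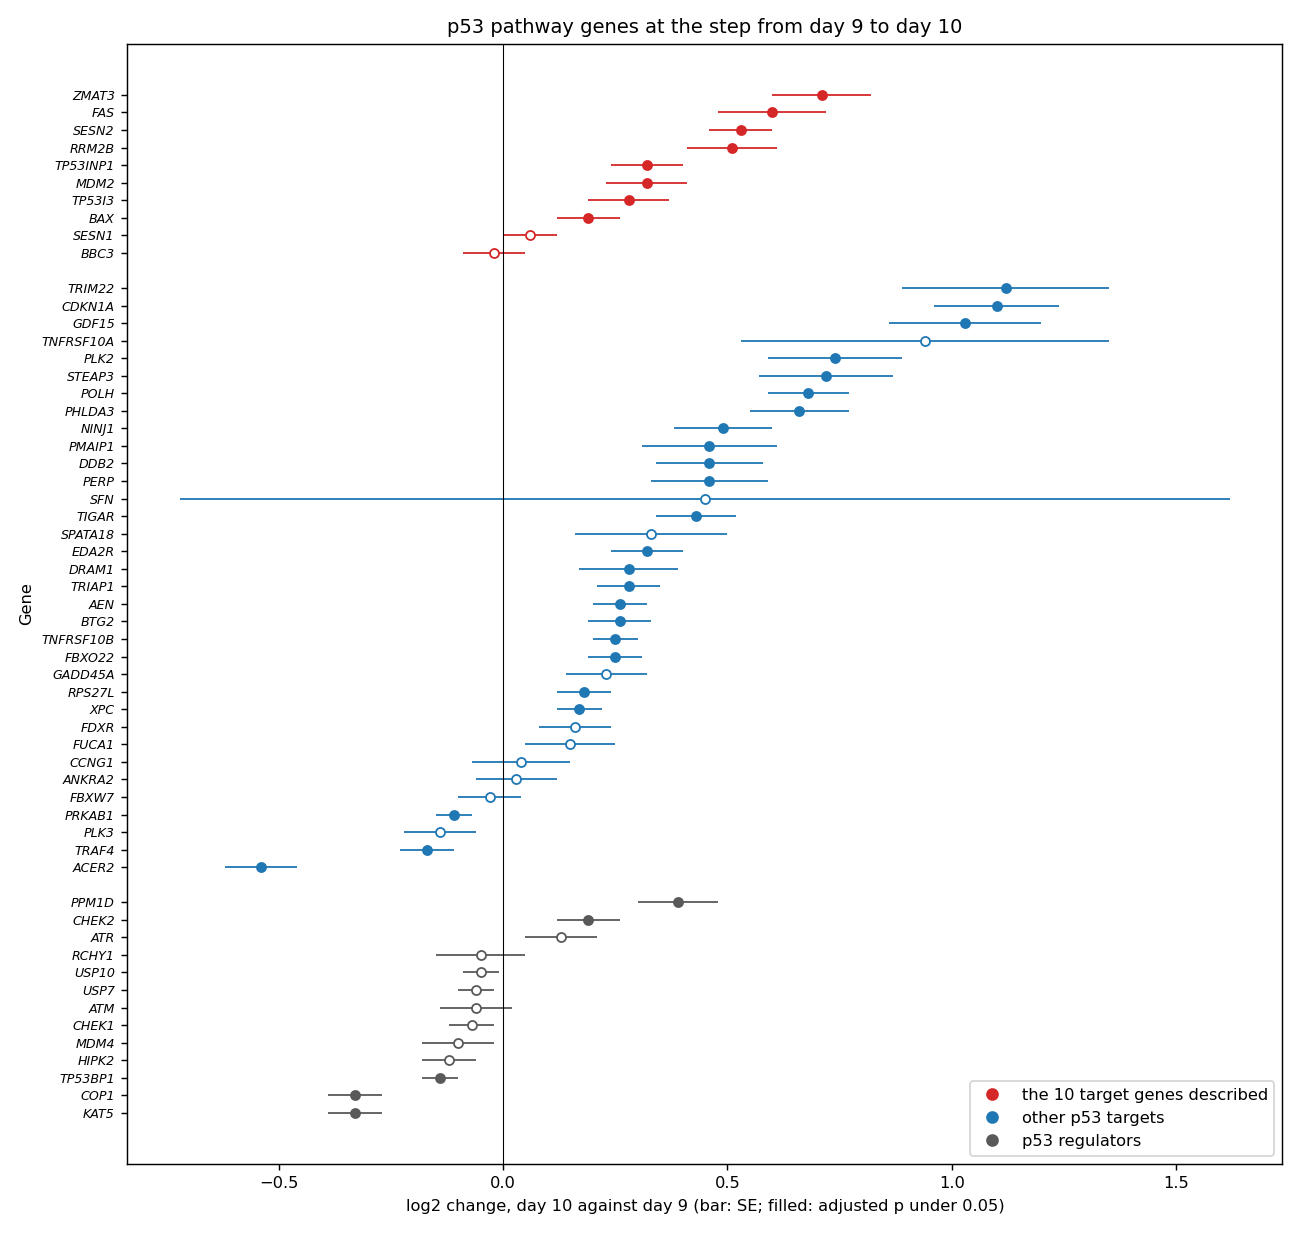
The log2 change from day 9 to day 10 of the 10 genes (red), 34 other p53 targets (blue) and p53 regulators (grey), each sorted by size; bars are ± SE and filled points have an adjusted p under 0.05. Of the 10 genes 8 are filled and to the right of 0, as are 21 of the 34 other targets.

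BAX and BBC3 belong to the mitochondrial death pathway, of which 17 further genes were listed. From day 9 to day 10, 4 rose and 2 fell, where 15.9% of all genes were called higher and 13.7% lower. The median log2 change over the 17 was -0.01, against 0.001 over all genes, so the list as a whole showed no shift. The pore-forming relatives BOK (1.15 ± 0.22) and BAK1 (0.39 ± 0.07), the BH3-only gene BMF (0.45 ± 0.1) and the apoptosome gene APAF1 (0.32 ± 0.06) rose. BCL2L11, which encodes BIM (-0.63 ± 0.06), and CASP9 (-0.39 ± 0.07) fell.

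Other gene groups were read at the same step, where 15.9% of all genes were called higher and 13.7% lower. Of 13 tested targets of ATF4, the factor of the integrated stress response that also induces SESN2, 11 rose and 0 fell (0 also at an unadjusted p under 0.05), with a median of 0.58. CHAC1 rose by 1.39 ± 0.18, ATF3, itself a known p53 target, by 1.06 ± 0.18, TRIB3 by 0.99 ± 0.14 and PCK2 by 0.99 ± 0.14. The summed level of the 14 listed went from a range of 708 to 730 TPM to 854 to 1035. Of 10 neuron markers, 7 fell and 0 rose (1 rose at an unadjusted p under 0.05). Their sum went from a range of 4356 to 4715 TPM on day 9 to 2618 to 3782 on day 10, with none at 0. Of 9 neural progenitor markers 6 fell and 1 rose, while their sum went from a range of 3587 to 3786 TPM to 4210 to 4804. VIM was the 1 that rose, from 2181 to 3502 CPM (log2 change 0.68 ± 0.08), while SOX3, HES5, OLIG2 and NES were among those that fell. Of 24 genes of dividing cells (S and G2/M phase), 2 rose and 3 fell. AURKA (0.37 ± 0.07) and CDK1 (0.22 ± 0.07) rose, and RRM1 (-0.25 ± 0.04), MCM2 (-0.17 ± 0.06) and MCM7 (-0.14 ± 0.05) fell. Mesoderm markers summed to 6.65 to 8.21 TPM on day 9 and 9.70 to 15.5 on day 10, with MYOD1 at 0 in all 6 libraries. Endothelial and blood markers summed to 1.76 to 2.33 and 2.64 to 4.44 TPM, with HBG1 at 0 in all 6. The mitochondrial share of counts was 2.326% to 2.679% on day 9 and 2.753% to 3.374% on day 10. The part of these groups in the rise of the 10 genes was not tested.

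Within a day, the same library was often highest or lowest for most of the 10 genes. On day 7, replicate 2 was highest for 7 and replicate 1 lowest for 7. On day 10, replicate 3 was highest for 6 of the 10 and replicate 2 lowest for 8. Replicate 3 also had the highest sum of ATF4 targets, 1035 TPM, and the lowest of neuron markers, 2618 TPM, and replicate 2 the lowest and highest of these, 854 and 3782. On day 11, replicate 1 was highest for 10 of the 10 genes. On day 15, replicate 3 was highest for 9 of the 10 and lowest for BBC3. It held 127 CPM of ZMAT3 where the others held 91.6 and 88.1, and 68.1 CPM of RRM2B where they held 52.0 and 49.4. Its neuron marker sum was 2668 TPM against 3184 and 3251. The 10 genes are read from the same cells in each library, so each library is 1 observation of this and not 10.

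After day 10 few steps were called. RRM2B fell from day 10 to day 11, from 60.5, 57.7 and 75.2 CPM to 53.2, 49.4 and 48.4 (-0.36 ± 0.1, adjusted p = 0.024), where 3.87% of all genes were called lower. BBC3 fell from day 14 to day 15, from 24.5, 25.2 and 22.6 CPM to 22.6, 20.5 and 17.6 (-0.25 ± 0.07, adjusted p = 0.033), where 3.28% were. Each of these calls was lost without any 1 of the 3 replicate numbers, and by limma on log2(TPM + 1). From day 11 to day 14, 0 of the 10 were called at any of the 3 steps, where 3.41%, 3.52% and 0.314% of all genes were; at an unadjusted p under 0.05 these steps held 2 higher and 2 lower, 1 lower, and 1 higher. DESeq2 called 1 lower from day 12 to day 13.

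Because medium was changed on alternate days, odd and even days from day 10 to day 15 were compared by a contrast free of a straight trend. None of the 10 genes was called by edgeR without a replicate block, against 1.63% of all genes higher and 3.05% lower on odd days. At an unadjusted p under 0.05, 1 was higher and 2 were lower, and DESeq2 and edgeR with the replicate number as a block each called 1 lower. RRM2B came nearest, at -0.2 ± 0.06 on odd against even days (adjusted p = 0.054). By plain means of odd and even days, in which the trend stays, BAX (-0.12 ± 0.04, adjusted p = 0.049) and RRM2B (-0.18 ± 0.06, 0.02) were lower on odd days, as were 9.77% of all genes.

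Over the 15 daily means the 10 genes formed no single group. Of their 45 pairs, 25 had a Pearson correlation of log2 CPM above 0, with a median of 0.08 and a range from -0.66 (TP53I3 with ZMAT3) to 0.93 (MDM2 with BBC3). MDM2, SESN2, BBC3, ZMAT3 and TP53INP1 correlated with each other at 0.77 to 0.93, and BAX and SESN1 at 0.89. Days follow one another and share the course of the culture, so these are descriptions with no p. Each gene was compared within 13311 protein-coding genes of at least 1 CPM, the 10 among them. The daily means most like those of ZMAT3 were those of CDKN1A (r = 0.984), RHOC (0.97) and NCR3LG1 (0.97). SESN2 was nearest to GDF15 (0.966), GNG11 (0.945) and FNDC1 (0.943). For TP53INP1 the nearest were GRIN2B (0.993), PNMA1 (0.991) and CSRNP3 (0.991). MDM2 was nearest to GAPVD1 (0.981), GPC4 (0.98) and ADGRG6 (0.975), and BBC3 to ESRRG (0.985) and THSD7A (0.983). TP53I3 was nearest to MICAL3 (0.958), SESN1 to PRDM1 (0.953), BAX to C11orf24 (0.975), RRM2B to PIK3C2A (0.936) and FAS, the least matched, to MXRA5 (0.876).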

How the data were processed

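Polyadenylated RNA from 45 human libraries, 3 on each of 15 days, was analysed. The submitters' processing notes name bcl2fastq 2.20.0, RSEM and GRCh38. Which RSEM version, annotation and strand setting served is not given in the sources used here. The deposited expected counts are RSEM estimates by the authors, 92.5% of them whole numbers, and were rounded. The deposited TPM values, scaled by the authors for length and library total, gave levels between genes and an alternative test. GENCODE 29 held 57895 of the 58233 identifiers, and the other 338 carried 0.0276% of counts.

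A robust quasi-likelihood model was fitted to the counts with edgeR 4.0.16 under R 4.3.3, after edgeR's default low-count filter and TMM scaling (factors from 0.9247 to 1.061). Day was a factor over all 45 libraries, with 30 residual degrees of freedom and a common biological coefficient of variation of 7.62%. P-values were adjusted over 19436 genes by the Benjamini-Hochberg method, and genes were called under 0.05. With 3 libraries a day, the tests rest on the spread pooled over days.

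Alternatives were DESeq2 1.42.0, its size factors in edgeR, no filter (37223 genes), a term for the replicate number, days 9 and 10 alone, limma 3.58.1 on log2(TPM + 1) and log2(TPM + 0.1) for 18075 genes of at least 1 TPM in 3 libraries, and left-out libraries or replicate numbers. On data simulated for day 9 against day 10 (19258 genes), 40% of genes changed by 1.25-fold and 78% of those changed by 1.5-fold were called, and 2.5% of calls were false. The simulation left all other genes unchanged and gave each gene the same spread on both days. In the data 15.9% of genes were called higher and 13.7% lower, so these rates need not hold there. The 10 genes and all lists were chosen with earlier results of these data known. All 10 genes are named, with MDM4, CDKN1A and CCNG1, the up to 4 called genes of each pathway list with the largest rise and fall from day 9 to day 10, and up to 3 genes with the most similar daily means. Promoter sequences are from RefSeq, GRCh38.p14. A few genes named by this rule are left out. The mouse samples of the series were not analysed here.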

Additional observations from a re-analysis of the deposited data

Results flagged for a closer look

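For 8 of the 10 genes the change from day 9 to day 10 differed from the change from day 8 to day 9 in the same direction, by edgeR's quasi-likelihood test of the difference of the 2 steps with adjustment over all genes tested. On the log2 scale the difference was 1.05 for ZMAT3, 0.81 for SESN2, 0.81 for RRM2B, 0.72 for FAS, 0.53 for TP53I3, 0.42 for TP53INP1, 0.40 for BAX and 0.29 for SESN1. The adjusted p lay between 3.6e-06 (SESN2) and 0.025 (SESN1). FAS and TP53INP1 had no called change in the earlier step, and SESN1 had none in the later one. The day 9 libraries enter both steps, and without day 9 replicate 3 the difference was called for 3 of the 10 genes.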

How the results depend on the processing

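For day 9 to day 10, SESN2, FAS, ZMAT3 and RRM2B kept direction and call in every alternative run. With a left-out library or replicate number the count of genes higher was 5 to 8, and the log2 change was 0.23 to 0.41 for MDM2, 0.18 to 0.41 for TP53I3, 0.12 to 0.26 for BAX, 0.20 to 0.39 for TP53INP1 and -0.11 to 0.08 for BBC3, whose sign turned. By limma on log2(TPM + 1) and log2(TPM + 0.1) MDM2 had 0.29 and 0.29 (adjusted p = 0.093 and 0.094), BAX 0.16 and 0.16 (0.24 in both) and SESN1, reversed, -0.03 and -0.04 (0.75). BAX also missed the threshold, each time at 0.19, with DESeq2 size factors (0.051), with no filter (0.065) and with the 6 libraries of days 9 and 10 alone (0.07), as TP53I3 did in the last (0.28, adjusted p = 0.076). The cause was not tested.

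Other counts that moved by over 1.5 times follow. By limma on TPM, the count lower was 2 for day 0 to day 1 (pseudocount 1), 3 for day 1 to day 2, 0 for day 10 to day 11 and day 14 to day 15, and 2 for day 15 against day 0; the step difference called 5 and day 10 against day 8 called 3 higher. With no filter the count lower was 3 for day 8 to day 9, 0 for day 14 to day 15 and 1 for day 10 against day 8. DESeq2 gave 2 lower for day 10 to day 11, 1 for day 12 to day 13 and 1 for odd against even days, where plain means gave 2. With days 9 and 10 alone, 1 other p53 target was lower.

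With left-out libraries or replicate numbers, the count lower was 2 to 4 for day 0 to day 1, 3 to 6 for day 1 to day 2, 0 to 7 for day 8 to day 9, 0 for day 10 to day 11 and for day 14 to day 15, 1 to 2 for days 10 to 12 against 7 to 9 and 1 to 2 for day 10 against day 8. The count higher was 0 to 1 for day 4 to day 5 and for day 5 to day 6, 3 to 8 for the step difference and 1 to 6 for day 10 against day 8. From day 9 to day 10, 1505 to 3224 of all genes were higher and 1255 to 2770 lower, and of the other p53 targets 9 to 24 and 1 to 4.

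The replicate numbers did not pair the libraries: same-numbered libraries of days 9 and 10 correlated at -0.01, 0.04 and -0.05 in their deviations from the day means. With the replicate block, 8 of the 10 genes were higher and 0 lower from day 9 to day 10 (3105 and 2672 of all genes), and 1 of the 10 was lower on odd than on even days.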
